A study of Rattus norvegicus with 6 samples.

Results

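MicroRNAs that mark cell stress were examined in the terminal hindgut of fetal rats with an anorectal malformation (ARM). The set was every array feature named for miR-21, miR-146a, miR-146b, miR-210 or miR-34a, with both arms of each hairpin. This gave 10 mature miRNAs with 22 probes and 160 spots per array, of 758 miRNAs with 1806 probes and 12128 spots. The ARM group held 3 samples from fetuses with the malformation whose Sprague Dawley dams had received ethylenethiourea (ETU, a blocker of thyroid hormone synthesis used to induce such malformations in rats). The dose, 125 mg/kg of a 1% solution, was given into the stomach on gestational day 10. The control group held 3 samples from healthy fetuses of Sprague Dawley dams given distilled water. In both groups a 1 cm piece of terminal hindgut was removed on embryonic day 20, and total RNA was hybridised to one-colour (Cy3) Agilent rat miRNA arrays. The labels give neither the dam and litter of a fetus nor whether a sample is 1 fetus, so the p-values below reflect the scatter among these samples and nothing more. Because every ARM sample was exposed to ETU and carried the malformation, effects of the exposure and of the malformation cannot be told apart.

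A mature miRNA guides the RNA-induced silencing complex to messenger RNAs through its seed, the bases near its 5′ end that pair with the target. From work mostly in human and mouse cells, miR-21 is known as an injury and inflammation miRNA that represses Pdcd4, and miR-146a and miR-146b are induced by NF-κB and restrain the same pathway through Irak1 and Traf6. The hypoxia-inducible factors switch on miR-210, which represses the iron-sulphur cluster scaffold Iscu, and p53 switches on miR-34a, which slows the cell cycle and favours apoptosis.

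All 10 mature miRNAs were matched by name to RefSeq (rat build GRCr8). The 5 sequences from the guide strands that the results turn on are given 5′ to 3′, with the seed (bases 2 to 8) in capitals, to show which members share a seed and how close the miR-146 pair is.
miR-21-5p: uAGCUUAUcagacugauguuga
miR-146a-5p: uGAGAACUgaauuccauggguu
miR-146b-5p: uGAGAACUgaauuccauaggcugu
miR-210-3p: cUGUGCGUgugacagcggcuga
miR-34a-5p: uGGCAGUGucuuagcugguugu
Another sequence is shown because the scanner software called it detected on ARM arrays only.
miR-210-5p: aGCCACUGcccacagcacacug

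In GRCr8, miR-21-5p lies at chr10:71902653-71902674 on the minus strand, and its hairpin overlaps no other RefSeq gene. The miR-146a-5p locus is chr10:28350053-28350074 on the minus strand, and its hairpin overlaps the span of a long noncoding RNA gene, LOC134480673. The miR-146b-5p locus is chr1:255144874-255144897 on the plus strand, and its hairpin overlaps the span of the protein-coding gene C1h10orf95. The miR-210-3p and miR-210-5p loci are chr1:205755946-205755967 and chr1:205755984-205756005 on the minus strand. Their hairpin overlaps the spans of the long noncoding RNA gene LOC102553043 and of Mir3574. The miR-34a-5p locus is chr5:165815971-165815992 on the plus strand, and its hairpin overlaps the span of the long noncoding RNA gene LOC103692514. Whether these spans are exonic or intronic at the miRNA was not analysed here.

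Among the 10 members, miR-146a-5p and miR-146b-5p alone shared a seed, GAGAACU. Over the 22 bases of miR-146a-5p, 20 were identical in miR-146b-5p, with the substitutions G18A and U21C from miR-146a-5p to miR-146b-5p, counted from 1 at the 5′ end, and miR-146b-5p had 24 bases in all. How far a probe for one of them also reads the other was not tested. The seed of miR-34a-5p, GGCAGUG, was shared by 4 other rat miRNAs in RefSeq, miR-34b-5p, miR-34c-5p, miR-449a-5p and miR-449c-5p.

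Between 207 and 246 miRNAs were detected per array, and no spot was saturated. A probe was called detected on an array where a share of 0.5 or more of its spots passed the software's test of being well above background. The 75th percentile of processed intensity over the probes detected on all arrays was 203 to 221 on ARM arrays and 225 to 290 on control arrays, and the signals of each array were multiplied so that this percentile came to a common 236, the geometric mean over the arrays, before the log2 values below were taken. One ARM array (replicate 3) lay alone on slide 2, and the other 5 arrays lay on slide 1. In these bulk samples, fewer cells of a type and less RNA per cell cannot be told apart.

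None of the 4 stress miRNAs that could be tested changed past the threshold between ARM and control hindgut. MiRNAs with a probe detected on 3 or more of the 6 arrays were tested. Among the members these were miR-21-5p, miR-146a-5p, miR-210-3p and miR-34a-5p, each detected on all 6 arrays, and the other 6 members were detected on no array. Of the 4 tested, 0 passed an adjusted p of 0.05 in limma with Benjamini-Hochberg adjustment over all 230 tested miRNAs, and 0 passed it unadjusted. Across the 230, 13.5% passed the adjusted threshold (31 miRNAs), with 5 higher in ARM (2.17%) and 26 lower in ARM (11.3%), and 40.9% passed the unadjusted one. The 95% intervals of the 4 differences all included 0, and with 3 arrays per group true changes of the sizes within them are not excluded. The median ARM minus control difference of the 4 was 0.26 (log2), and that of all 230 was 0.17.

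**Figure D1:**
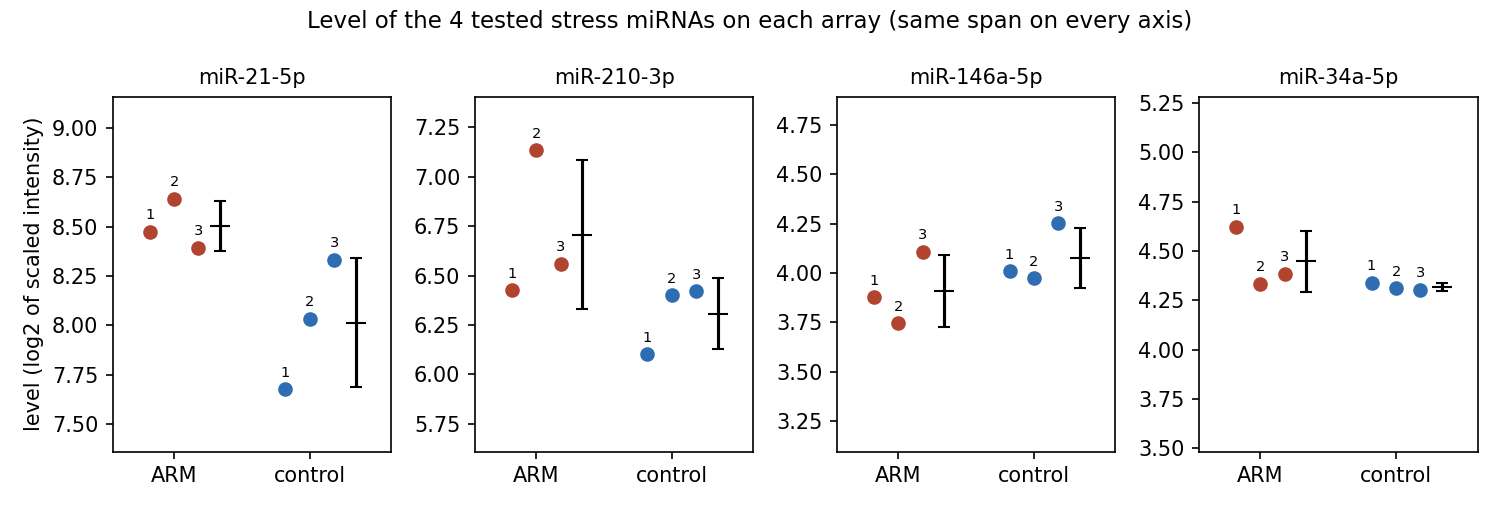
Level of each tested stress miRNA on each array, in log2 of scaled intensity, with ARM arrays left of control arrays. Points are single arrays labelled by replicate number, the bar beside them is the mean with its SD (n = 3 each), and every panel spans the same range on its axis. The 3 ARM arrays of miR-21-5p, at 8.39 to 8.64, lay above the control arrays at 7.68 to 8.33, while the groups of miR-146a-5p and miR-34a-5p overlapped.

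MiR-21-5p, the injury and inflammation miRNA, was at 8.47, 8.64 and 8.39 (log2 of scaled intensity) in ARM 1, 2 and 3, and at 7.68, 8.03 and 8.33 in control 1, 2 and 3. The groups did not overlap, control 1 was the lowest array, and control 3 lay 0.06 below the lowest ARM array. Of the 4 tested members 2 had groups that did not overlap, and 48.7% of all tested miRNAs had such groups. The mean level of miR-21-5p was 8.50 ± 0.13 in ARM hindgut and 8.01 ± 0.33 in control hindgut (SD, n = 3 each), an ARM minus control difference of 0.49 (log2, SE 0.21, 95% interval −0.01 to 0.99). This is 1.40-fold (95% interval 0.990 to 1.99) with an adjusted p of 0.123 in limma (0.0552 before adjustment). Of the 230 tested differences, 78.7% were smaller than or equal to it.

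Both probes of miR-21-5p were bright on every array, with 42 of 42 spots well above background on ARM arrays and 42 of 42 on control arrays. The brighter probe had processed intensities, before scaling, of 786, 910 and 713 in ARM 1, 2 and 3, and 617, 778 and 781 in control 1, 2 and 3. The dimmer probe had 120, 140 and 140 in ARM 1, 2 and 3, and 103, 123 and 121 in control 1, 2 and 3. Before scaling both probes' groups overlapped, with ARM 3 below control 2 and control 3 on the brighter probe and ARM 1 below them on the dimmer one. After scaling the difference was 0.46 (log2) by the brighter probe, whose groups still overlapped, and 0.52 by the dimmer one, whose groups did not. Spots of a probe on one array varied with a coefficient of variation of 2.93% to 5.76% for the brighter probe and 2.79% to 14.9% for the dimmer one.

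MiR-21-5p passed the threshold under 2 of 24 processing alternatives. Without control 3 the difference was 0.66 (log2, SE 0.17, adjusted p = 0.0396 in limma), and 40.4% of all tested miRNAs were then called (19.1% higher in ARM). With array weights it was 0.55 (adjusted p = 0.0476), with 37.8% of all tested miRNAs called (16.1% higher in ARM). Without control 1 the difference was 0.34 (adjusted p = 0.274 in limma), beside a median of 0.14 for all tested miRNAs. Without scaling between arrays it was 0.18 (adjusted p = 0.484), beside a median of −0.13. Within slide 1 it was 0.54 (SE 0.26, adjusted p = 0.188), and with slide as a block 0.54 (adjusted p = 0.187).

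**Figure D2:**
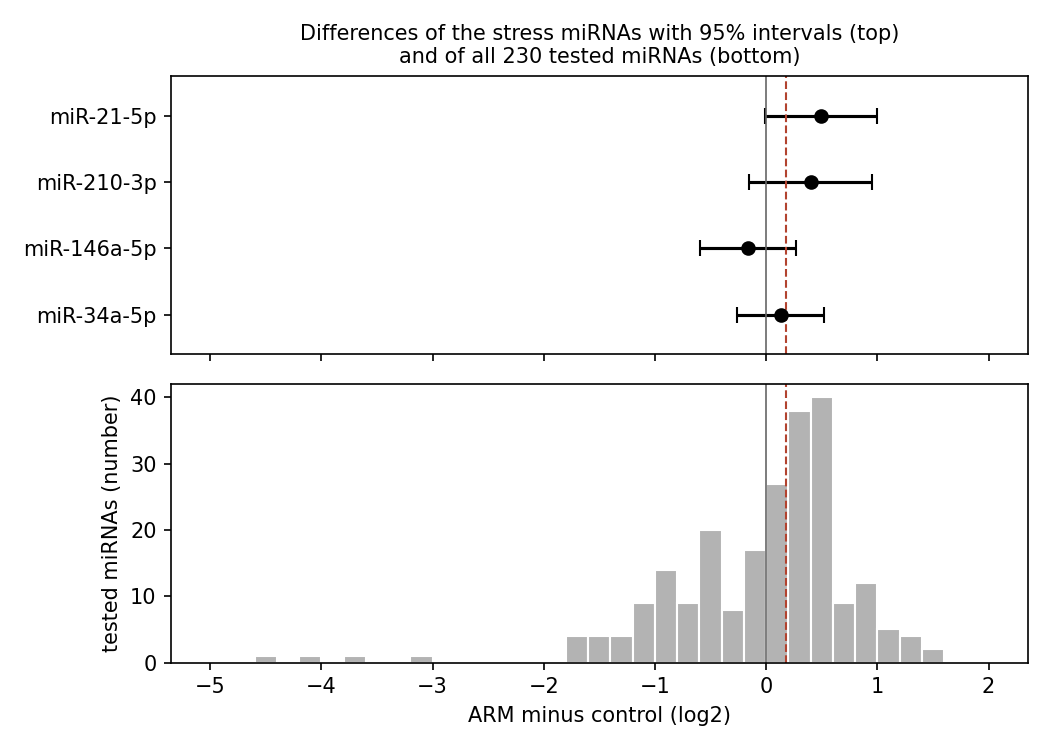
ARM minus control differences (log2) of the 4 tested stress miRNAs with 95% intervals (top) and of all 230 tested miRNAs as a count per difference (bottom). The dashed line marks the median of all tested miRNAs at 0.17, which lies inside all 4 intervals. The left tail of the lower panel holds the muscle and liver miRNAs given below.

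MiR-146a-5p, the NF-κB-induced feedback miRNA, was at 3.88, 3.75 and 4.11 (log2 of scaled intensity) in ARM 1, 2 and 3, and at 4.01, 3.97 and 4.25 in control 1, 2 and 3. The groups overlapped through ARM 3, the highest ARM array. Its mean was 3.91 ± 0.18 in ARM hindgut and 4.08 ± 0.15 in control hindgut (SD, n = 3 each), a difference of −0.17 (log2, SE 0.18, 95% interval −0.60 to 0.26, 0.891-fold). The adjusted p was 0.470 in limma, and 34.8% of the 230 tested differences were smaller than or equal to it.

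MiR-146a-5p was close to background. Its brighter probe had processed intensities, before scaling, of 23.6, 22.9 and 28.2 in ARM 1, 2 and 3, and 35.1, 34.8 and 31.5 in control 1, 2 and 3, so that all ARM arrays lay below all control arrays on this unscaled intensity. After scaling that probe's groups overlapped. The dimmer probe, at 6.25 to 9.28 on ARM arrays and 9.86 to 11.2 on control arrays before scaling, was detected on no array. Over both probes 23 of 44 spots were well above background on ARM arrays and 18 of 41 on control arrays. From the detected probe alone the scaled difference was −0.13 (log2, adjusted p = 0.542).

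The sign of the miR-146a-5p difference depended on the background correction, and its size on the scaling. It was 0.13 (log2, adjusted p = 0.293) with normexp background correction. Without scaling between arrays it was −0.48 (adjusted p = 0.0905), when the median of all tested miRNAs was −0.13. Within slide 1 it was −0.27 (adjusted p = 0.395), and with slide as a block −0.27 (adjusted p = 0.394).

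Its partner miR-146b-5p, which carries the same seed, was not tested because its probes were not well above background on any array. Its brighter probe read 15.7, 14.7 and 12.8 in ARM 1, 2 and 3, and 14.5, 14.9 and 15.3 in control 1, 2 and 3, in processed intensity before scaling. The groups overlapped, and the lowest detected probe of an array read 11.8 to 14.7 on ARM arrays and 14.7 to 16.1 on control arrays. Over both probes 5 of 43 spots were well above background on ARM arrays and 1 of 41 on control arrays. The scanner software called miR-146b-5p detected on all 6 arrays, and with that call as the filter its difference was 0.18 (log2, SE 0.18, 95% interval −0.24 to 0.59, adjusted p = 0.435 in limma).

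MiR-210-3p, the hypoxia-inducible-factor target, was at 6.42, 7.14 and 6.56 (log2 of scaled intensity) in ARM 1, 2 and 3, and at 6.10, 6.40 and 6.42 in control 1, 2 and 3. ARM 2 was the highest array and control 1 the lowest. ARM 1 and control 3 were level to 2 decimals, so the groups stood apart only beyond that. Its mean was 6.71 ± 0.38 in ARM hindgut and 6.31 ± 0.18 in control hindgut (SD, n = 3 each), a difference of 0.40 (log2, SE 0.24, 95% interval −0.15 to 0.95, 1.32-fold). The adjusted p was 0.216 in limma, and 68.7% of the 230 tested differences were smaller than or equal to it.

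Both probes of miR-210-3p were detected on every array, with 45 of 45 spots well above background on ARM arrays and 45 of 45 on control arrays. The brighter probe had processed intensities, before scaling, of 104, 169 and 122 in ARM 1, 2 and 3, and 119, 139 and 112 in control 1, 2 and 3. The dimmer probe had 53.0, 92.9 and 64.0 in ARM 1, 2 and 3, and 59.9, 71.3 and 59.6 in control 1, 2 and 3. On this unscaled intensity both probes put ARM 2 above every control array and ARM 1 below every control array. After scaling the difference was 0.38 (log2) by the brighter probe, whose groups did not overlap, and 0.41 by the dimmer one, whose groups did.

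The miR-210-3p difference was smaller without ARM 2 and without scaling, and the median of all tested miRNAs also moved. Without ARM 2 the difference was 0.21 (log2, adjusted p = 0.470 in limma), beside a median of 0.23. Without scaling between arrays it was 0.09 (adjusted p = 0.805), beside a median of −0.13. With quantile normalization it was 0.58 (adjusted p = 0.111), within slide 1 0.47 (adjusted p = 0.275), and with slide as a block 0.47 (adjusted p = 0.275).

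The other arm of this hairpin, miR-210-5p, failed the probe rule for detection on every array, with 1 of 44 spots above it on ARM arrays and 0 of 45 on control arrays. Its brighter probe nevertheless read 3.01, 12.3 and 11.7 in ARM 1, 2 and 3, and 3.50, 2.13 and 2.43 in control 1, 2 and 3, in processed intensity before scaling. The second probe read −0.12, 2.71 and 5.25 in ARM 1, 2 and 3, and −0.08, −0.43 and −0.29 in control 1, 2 and 3. On both probes ARM 2 and ARM 3 were above all control arrays, and ARM 1 was among the control values. No fold is given because the probes were not well above background in either group.

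MiR-34a-5p, the p53 target, was at 4.62, 4.33 and 4.39 (log2 of scaled intensity) in ARM 1, 2 and 3, and at 4.34, 4.31 and 4.30 in control 1, 2 and 3. The control arrays lay within 0.04 of each other, ARM 1 was the highest array, and the groups overlapped through ARM 2. These levels average a probe detected on all arrays with a probe detected on none. On control 1, 2 and 3 the detected probe alone was at 5.21, 5.19 and 5.44, and the undetected one at 3.47, 3.43 and 3.16. Its mean was 4.45 ± 0.15 in ARM hindgut and 4.32 ± 0.02 in control hindgut (SD, n = 3 each), a difference of 0.13 (log2, SE 0.17, 95% interval −0.26 to 0.52, 1.09-fold). The adjusted p was 0.542 in limma, and 46.1% of the 230 tested differences were smaller than or equal to it.

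The brighter probe of miR-34a-5p had processed intensities, before scaling, of 42.7, 30.9 and 36.2 in ARM 1, 2 and 3, and 45.6, 43.1 and 41.5 in control 1, 2 and 3. Its dimmer probe, at 10.5 to 10.6 on ARM arrays and 8.54 to 13.6 on control arrays before scaling, was detected on no array. Over both probes 20 of 42 spots were well above background on ARM arrays and 22 of 40 on control arrays. From the detected probe alone the scaled difference was 0.06 (log2, adjusted p = 0.828). Without scaling between arrays the sign turned, at −0.18 (adjusted p = 0.507) against a median of −0.13 for all tested miRNAs. Within slide 1 the difference was 0.16 (adjusted p = 0.596), and with slide as a block 0.16 (adjusted p = 0.596).

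The spread between arrays of one group differed among the members. The pooled within-group SD was 0.25 (log2) for miR-21-5p, 0.17 for miR-146a-5p, 0.30 for miR-210-3p and 0.11 for miR-34a-5p, beside a median of 0.29 over the 230 tested miRNAs. Only 3.48% of tested miRNAs had a smaller spread than miR-34a-5p, and 53.0% had a smaller one than miR-210-3p. The small spread of miR-34a-5p is that of an average over a detected and an undetected probe. These moved in opposite directions on control 3.

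**Figure D3:**
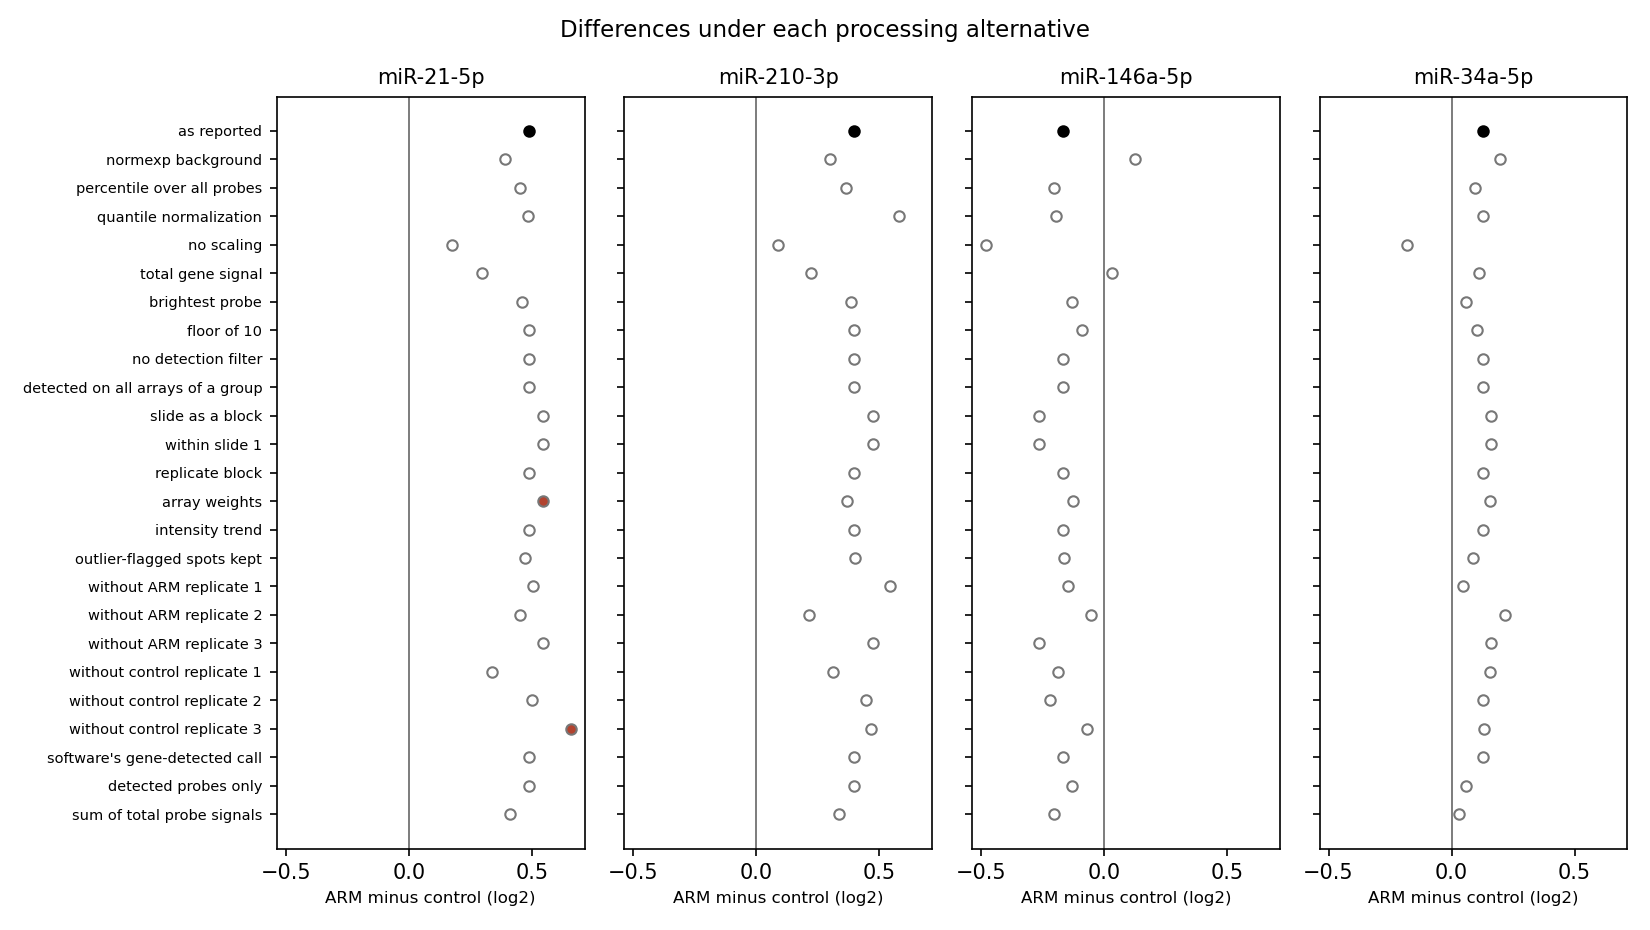
ARM minus control difference (log2) of each tested stress miRNA as reported (filled black) and under 24 processing alternatives (open circles, red where the adjusted p was under 0.05). MiR-21-5p and miR-210-3p stayed above 0 under all 24, and miR-34a-5p crossed 0 without scaling. MiR-146a-5p crossed 0 with normexp background correction and when the software's total was used. That total held the total of miR-145-5p on ARM 1, ARM 2, control 2 and control 3. Some alternatives, such as the intensity trend, cannot change a difference, only its p-value.

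The passenger arms of the other hairpins gave no measurable signal. MiR-21-3p had 0 of 46 spots well above background on ARM arrays and 0 of 48 on control arrays, with probe means of −5.0 to 6.04 on ARM arrays and −5.36 to 4.30 on control arrays, in processed intensity before scaling. MiR-34a-3p had 0 of 41 such spots on ARM arrays and 0 of 39 on control arrays, with probe means of 0.67 to 3.67 on ARM arrays and 0.89 to 1.73 on control arrays. MiR-146a-3p had 0 of 42 on ARM arrays and 0 of 37 on control arrays, and miR-146b-3p had 0 of 46 on ARM arrays and 0 of 43 on control arrays. Most probe means of these miR-146 arms were below 0 after the software's background subtraction. A level below the detection limit of these arrays cannot be set against the guide strand, which is read by other probes.

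**Figure D4:**
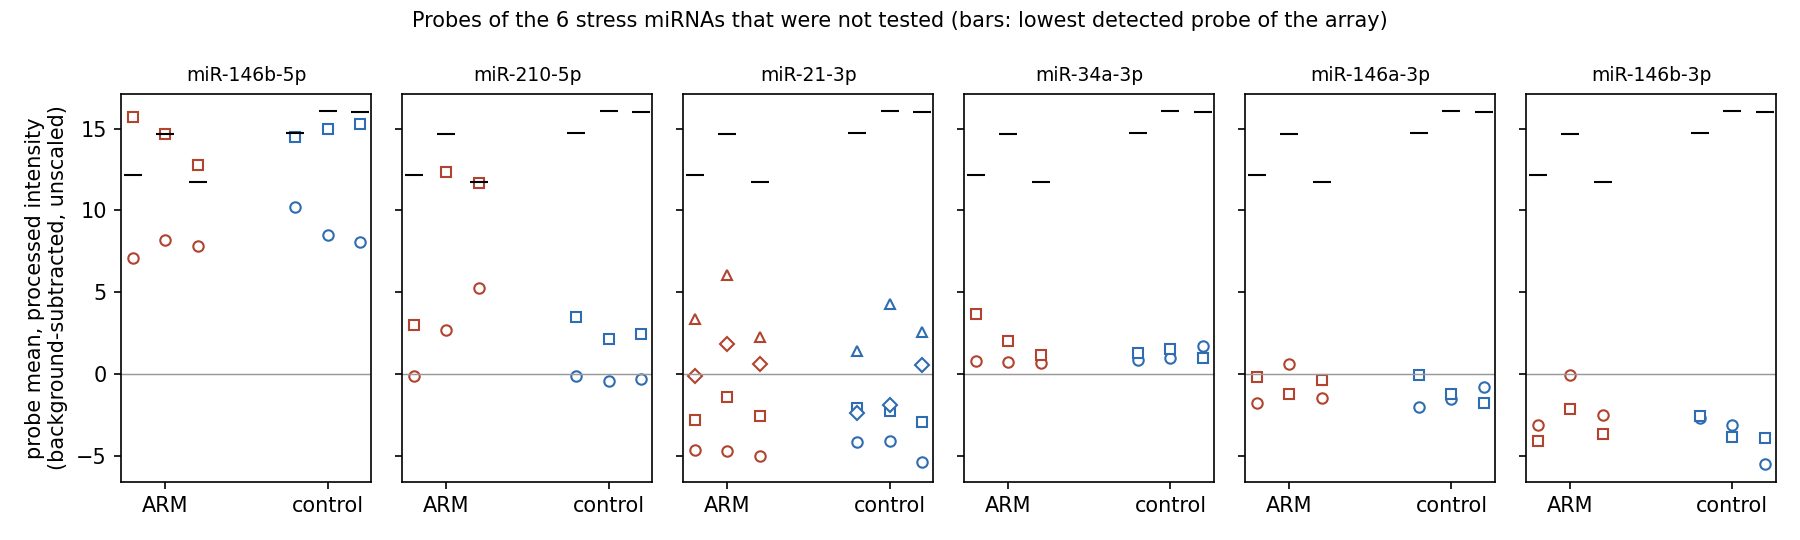
Mean processed intensity of each probe of the 6 stress miRNAs that were not tested, per array, before scaling, with ARM arrays left of control arrays and replicates 1 to 3 in order within a group. Marker shapes are different probes of a miRNA, and the short bars are the dimmest detected probe of each array, at 11.8 to 14.7 on ARM arrays and 14.7 to 16.1 on control arrays. MiR-210-5p was highest on ARM 2 and ARM 3, and miR-146b-5p lay near the bars in both groups.

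The scanner files hold a second readout, a total gene signal per miRNA computed by the software, and for some members it did not rest on their own probes alone. MiR-34a-5p had a total of 28.4, 893 and 25.5 in ARM 1, 2 and 3, and 31.5, 29.4 and 710 in control 1, 2 and 3, so that ARM 2 and control 3 stood far above the rest. The totals of its own probes were 28.4, 22.3 and 25.5 in ARM 1, 2 and 3, and 31.5, 29.4 and 26.7 in control 1, 2 and 3. On ARM 2 and control 3 the total equalled part of this plus the total of miR-3473, the detected miRNA before it in name order, which was 877 on ARM 2 and 688 on control 3.

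MiR-146a-5p had total gene signals of 63.8, 74.0 and 20.4 in ARM 1, 2 and 3, and 24.6, 59.7 and 78.2 in control 1, 2 and 3, with own-probe totals of 16.3, 15.8 and 20.4 on ARM arrays and 24.6, 23.5 and 22.4 on control arrays. On ARM 1, ARM 2, control 2 and control 3 the total held that of miR-145-5p. The total of miR-146b-5p held that of miR-146a-5p on all 6 arrays. MiR-210-5p had 148 on ARM 2 and 108 on ARM 3, which held the 142 and 101 of miR-210-3p on those arrays. The totals of miR-21-5p and miR-210-3p equalled those of their own probes on all 6 arrays.

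**Figure D5:**
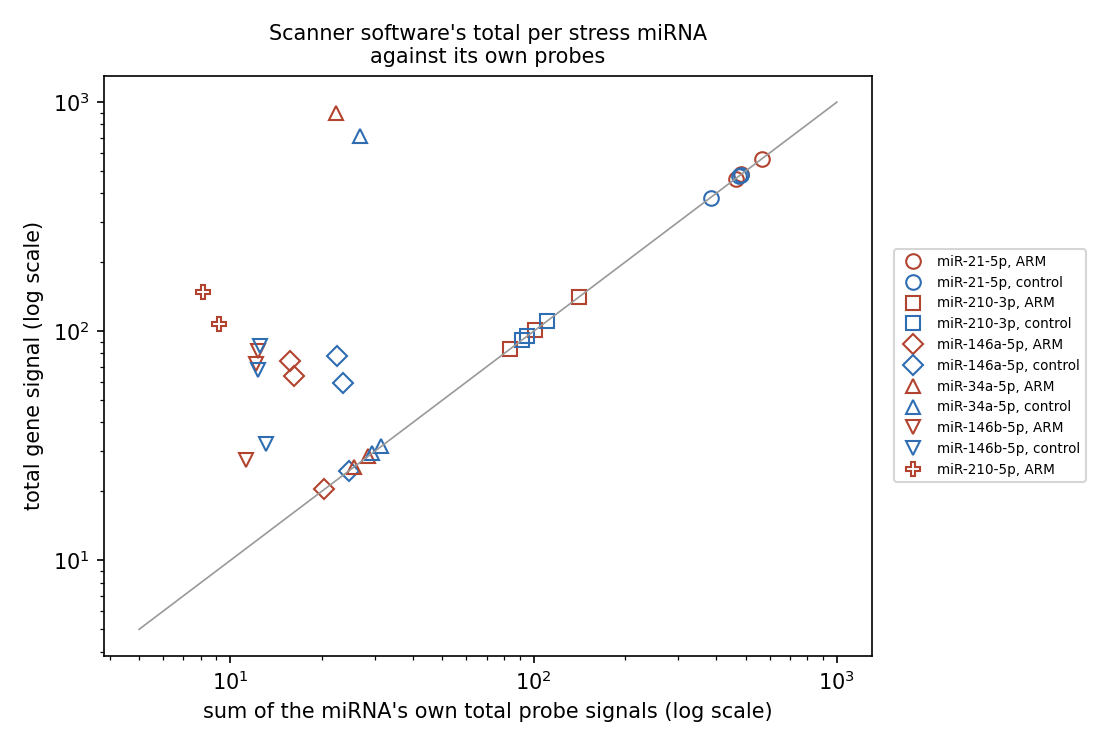
Total gene signal given by the scanner software (vertical, log scale) against the sum of the same miRNA's own total probe signals (horizontal, log scale), with 1 point per stress miRNA and array that the software called detected. Points on the grey line have equal values, as all points of miR-21-5p and miR-210-3p do. The points far above it are miR-34a-5p on ARM 2 (893 against 22.3) and control 3 (710 against 26.7), and miR-146a-5p, miR-146b-5p and miR-210-5p on the arrays named in the text.

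Other miRNAs of the same pathways were counted from lists, and none of their members was called in limma. Of 14 other inflammation miRNAs on the array (miR-132, miR-147, miR-155, miR-181a, miR-187, miR-212, miR-223 and miR-9a, with the arms the array holds), 3 were tested and 0 called, with a median difference of 0.01 (log2, range −0.06 to 0.27). With an array left out that median ran from −0.10 to 0.16. The brightest of them, miR-181a-5p, which tunes lymphocyte receptor signalling in mice, differed by −0.06 (SE 0.22, adjusted p = 0.837). MiR-155-5p, an inflammation miRNA of activated leukocytes, was detected on 1 array. Of 14 other hypoxia-linked miRNAs (miR-103, miR-107, miR-23a, miR-23b, miR-24, miR-26a, miR-26b and miR-27a), 9 were tested and 0 called, with a median of 0.11 (range −0.19 to 0.44) and 6 of 9 above 0, beside 59.6% of all tested differences. With an array left out that median ran from 0.13 to 0.32. Without scaling it was −0.20, beside −0.13 for all tested miRNAs. The brightest, miR-26a-5p, differed by 0.42 (SE 0.21, adjusted p = 0.168).

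Of 14 injury and matrix miRNAs (miR-192, miR-199a, miR-214, miR-29a, miR-29b, miR-29c and miR-31a), 8 were tested and 0 called, with a median of 0.47 (log2, range −0.39 to 1.33), beside 0.17 for all tested miRNAs. The brightest, miR-199a-3p of mesenchymal cells, differed by −0.29 (SE 0.19, adjusted p = 0.242), and the largest difference was that of miR-192-5p, which is also a marker of intestinal epithelium. Groups did not overlap for 4 of the 8, beside 48.7% of all tested miRNAs. With an array left out the median of this list ran from 0.20 to 0.69. The lowest was without control 1, beside 0.14 for all tested miRNAs. Without scaling the list's median was 0.16, beside −0.13 for all tested miRNAs. With the total gene signal it was −0.37, beside −0.10. Of the 8 relatives of miR-34a on the array, both arms of miR-34b, miR-34c, miR-449a and miR-449c, none was detected on any array.

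Markers of other cells moved between the groups, and their part in the values of the stress miRNAs was not tested. Sums for these markers are of scaled intensity over the tested members of a list only. For leukocytes, a main source of miR-146a in adult tissue, the sum was 72.6 to 95.8 on ARM arrays and 77.2 to 96.0 on control arrays, with 4 of 8 members tested and 0 called. The leukocyte members miR-142-5p, miR-155-3p and miR-223-5p were detected on no array, and miR-155 and miR-223 also stand in the inflammation list. For intestinal epithelium the sum was 1620 to 2583 on ARM arrays and 506 to 1441 on control arrays, with 9 of 14 members tested, all 9 higher in ARM on average and 0 called. The mean level of the tested epithelial members was 6.43, 6.82 and 6.19 (log2) in ARM 1, 2 and 3, and 4.46, 5.78 and 5.95 in control 1, 2 and 3. Control 1, the lowest array here, was also the lowest for miR-21-5p and miR-210-3p after scaling. It had the highest 75th percentile (290), so scaling lowered its values most. Before scaling it was still the lowest array on both miR-21-5p probes, but on neither miR-210-3p probe.

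For striated muscle the summed scaled intensity was 87.1 to 244 on ARM arrays and 756 to 3386 on control arrays, with all 4 tested members lower in ARM on average, 3 of them called, and a median difference of −3.39 (log2). The single tested liver marker was called lower in ARM (sum of 2.13 to 21.7 on ARM arrays and 107 to 213 on control arrays), as were both tested erythroid markers (68.5 to 105 on ARM arrays and 204 to 369 on control arrays). Smooth muscle summed to 774 to 824 on ARM arrays and 469 to 806 on control arrays, mesenchyme to 2341 to 2864 on ARM arrays and 2850 to 3716 on control arrays, and endothelium to 183 to 215 on ARM arrays and 185 to 236 on control arrays, with 0 called in these 3 lists. Of 5 neuron markers only miR-128-3p was tested, and it was not called. Its scaled intensity was 12.6 to 23.9 on ARM arrays and 26.8 to 65.3 on control arrays. The untested miR-9a-5p, miR-9a-3p and miR-124-3p had higher mean levels in ARM (3.24, 3.24 and 1.76 log2) than in control (1.71, 2.09 and 1.26). MiR-124-5p was near the floor in both groups. Each of these untested markers was detected on 1 array or none.

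Profiles over the 6 arrays were compared after each was centred on its own mean, and the 3 nearest tested miRNAs are given by root mean square distance as a description. For miR-21-5p they were miR-497-5p (0.11 log2), miR-107-3p (0.11) and miR-15b-5p (0.11), where the median distance to all tested miRNAs was 0.38. For miR-146a-5p they were miR-140-3p (0.07), miR-126a-3p (0.08) and miR-23a-3p (0.11), with a median of 0.38. For miR-210-3p they were miR-193b-3p (0.15), miR-425-5p (0.19) and miR-1949 (0.19), with a median of 0.41, and for miR-34a-5p miR-324-5p (0.10), let-7i-5p (0.12) and miR-345-5p (0.12), with a median of 0.35.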

How the data were processed

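Per the file headers, the deposited processed intensity comes from Agilent Feature Extraction 10.7.1.1, which subtracts a background per spot and applies no scaling between arrays. The deposited value table held the same intensity, with a largest difference of 0. The total gene signal and total probe signal are further intensity columns that the authors' software wrote, per the file headers. Control spots and spots flagged as outliers were left out, and spots of a probe were averaged. Signals were multiplied so that each array's 75th percentile, taken over the probes that all 6 arrays detected, came to a common 236, then floored at 1, converted to log2, and averaged over the probes of a miRNA. Groups came from the sample titles. ARM was compared with control with limma 3.58.1 (lmFit and eBayes, R 4.3.3) over 230 miRNAs, with p-values adjusted by Benjamini and Hochberg's method and called under 0.05, and the fit was tested on simulated data. The number of arrays limits the precision. Names are those of the array design. The members, the lists of related miRNAs and the alternatives were chosen with earlier results of these data known. All members are named, as are the brightest member of each related list with none called and the 3 nearest profiles of each tested member. MiRNAs named for other reasons were chosen after their values were seen. The samples were treated as unpaired, since the labels give no pairing. The correlations of same-numbered arrays, as deviations from their group means, were −0.07, −0.28 and −0.21. Arrays with different numbers were not compared, so these values cannot settle whether any samples were paired.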

Additional observations from a re-analysis of the deposited data

Results flagged for a closer look

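MiR-210-5p was called detected by the scanner software on 2 ARM arrays, replicates 2 and 3, and on no control array. Its probes were not well above background on any array by the rule used for the comparison, and the difference was not tested. The total gene signal that the software gave it on those arrays, 148 and 108, held the total of miR-210-3p, and its own probes accounted for 6.66 and 6.34 of it.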

How the results depend on the processing

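Of 24 alternatives, the direction and the call of miR-210-3p held under all 24 (0.09 to 0.58 log2, adjusted p 0.111 to 0.805). The 24 are not separate checks. The intensity trend, the 2 detection settings (no filter, all arrays of a group) and the replicate block cannot change a difference, which stayed at 0.40. Within slide 1, slide as a block and without ARM 3 gave the same 0.47, because ARM 3 lay alone on its slide. MiR-21-5p kept its direction under all 24 (0.18 to 0.66, adjusted p 0.0396 to 0.502) and was called under 2, array weights (0.55) and without control replicate 3 (0.66). MiR-146a-5p reversed to 0.13 with normexp and to 0.034 with the total gene signal. Its total gene signal held that of miR-145-5p on ARM 1, ARM 2, control 2 and control 3. MiR-34a-5p reversed to −0.18 without scaling. The number of stress miRNAs called was 1 with array weights and 0 to 1 with an array left out. Left-out differences ran from 0.34 to 0.66 for miR-21-5p, 0.21 to 0.54 for miR-210-3p, −0.27 to −0.05 for miR-146a-5p and 0.05 to 0.22 for miR-34a-5p.

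Of all tested miRNAs, 31 were called. The count was 16 with normexp, 0 with no detection filter (134 at an unadjusted p under 0.05), 0 with slide as a block and within slide 1 (78 unadjusted in each), 87 with array weights, and 0 to 93 with an array left out. It was 50 with the sum of total probe signals, an alternative chosen after seeing the data, as were the software's detected call and detected probes only. With the replicate number as a block it was 0 (73 unadjusted), and miR-21-5p differed by 0.49 (adjusted p = 0.202). As far as the labels show, the samples share only a number there. Of the injury and matrix list 2 were called without scaling and 1 with array weights, and of the hypoxia-linked list 3 with array weights, with ranges of 0 to 1 and 0 to 4 with an array left out. The cause of these changes was not tested. Signal over background limits miR-146a-5p and miR-34a-5p, which average 1 detected probe each with a probe detected on no array. By the detected and the undetected probe the differences were −0.13 and −0.20 (log2) for miR-146a-5p. For miR-34a-5p they were 0.06 and 0.20.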

Other observations

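The total gene signal was set against the total probe signals over all detected miRNAs. Of 1615 totals on the 6 arrays, 1143 equalled the sum of the miRNA's own probe totals, for 1090 of them over all its probes, within a tolerance of 0.01% plus 0.002. The other 472 (29.2%) equalled the total of the detected miRNA before it in name order plus own probe totals, and 0 fitted neither. Of these 472, 470 held only some of the miRNA's own probes, and 2 held all. There were 73, 77 and 88 such totals in ARM 1, 2 and 3, and 76, 85 and 73 in control 1, 2 and 3. Of the 230 tested miRNAs, 78 had one on at least 1 array. None of the 472 equalled own probe totals plus the total of the following miRNA. With the total gene signal the 95% interval of the miR-34a-5p difference ran from −4.8 to 5.0 (log2), and with the sum of own probe totals it ran from −0.42 to 0.48.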
